A study of Mus musculus with 6 samples.

Results

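The 10 genes described here encode the mouse inhibitors of cyclin-dependent kinases (CDKs) and the retinoblastoma, or pocket, proteins. They were chosen by name, as the rows of the deposited gene count table whose symbol is Cdkn1a, Cdkn1b, Cdkn1c, Cdkn2a, Cdkn2b, Cdkn2c, Cdkn2d, Rb1, Rbl1 or Rbl2. All 10 were among the 25628 symbols of the table, and all 10 were among the 14158 genes with enough counts to be tested. The RNA came from TgSpi1 leukaemic erythroid cells of mouse bone marrow, a line labelled 722 that overexpresses Spi1, the gene of the transcription factor PU.1, and that carries an shRNA against Spi1 under doxycycline control. The untreated group (n = 3) kept its high Spi1 level, and the doxycycline group (n = 3) was given the drug for 48 h. Both groups carried the shRNA and grew with erythropoietin. The age and strain of the source animal, and the promoter of the transgene, are not stated by the labels. There was no group given doxycycline without the shRNA, so that an effect of the drug and an effect of the shRNA cannot be told apart, and 1 line was studied.

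CDKs drive the cell cycle when a cyclin is bound to them. The INK4 inhibitors, encoded by the Cdkn2 genes, bind CDK4 and CDK6 and keep D-type cyclins from activating them. The CIP/KIP inhibitors, encoded by the Cdkn1 genes, bind whole cyclin-CDK complexes and are best known for blocking CDK2. The pocket proteins are what these kinases act on: without phosphate they hold E2F factors and keep S phase genes silent, and phosphorylation releases E2F. Red cell precursors leave the cell cycle as they mature, a step in which inhibitors such as p27 and p18 and the pocket protein pRB take part.

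Spi1, the target of the shRNA, stood at 415, 353 and 330 CPM (counts per 1000000 counts of the scaled library) in untreated replicates 1, 2 and 3 and at 84.8, 80.4 and 62.1 CPM with doxycycline. The fall had a log2 fold change of -2.27 (SE 0.17, edgeR adjusted p = 0.0030). Libraries held between 78926663 and 101276319 counts. Libraries of the same replicate number deviated together across genes in the 2 groups. Each result is therefore given from a fit with the group alone and, where its call differs, from a second fit in which the replicate number is a further term (a block, which compares libraries within their numbers). "With the block" names the second fit, and log2 fold changes are doxycycline over untreated.

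None of the 10 genes passed an adjusted p of 0.05 in edgeR's quasi-likelihood test with the group alone. Over all genes tested 2.59% passed, 0.417% higher and 2.18% lower. Of the 10, Cdkn1c and Cdkn2c had an unadjusted p under 0.05, against 15.4% of all genes. DESeq2 with the group alone called none of the 10 and 7.15% of all genes. With the block 5 of the 10 passed, against 25.8% of all genes. Cdkn1c, Cdkn2c and Rbl1 rose (10.3% of all genes did), and Cdkn2b and Cdkn2d fell (15.6% did). DESeq2 with the block called 4 of these 5, all but Cdkn1c (adjusted p = 0.065), and 24.0% of all genes. The median log2 fold change with the block was 0.14 over the 10 genes and -0.002 over all genes tested. Without the 2 libraries numbered 1 none of the 10 passed with the block, although the log2 fold changes of the 5 kept their signs and stood at 1.14 for Cdkn1c, 0.43 for Cdkn2c, 0.23 for Rbl1, -0.71 for Cdkn2b and -0.47 for Cdkn2d (adjusted p = 0.13, 0.081, 0.29, 0.058 and 0.14).

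**Figure D1:**
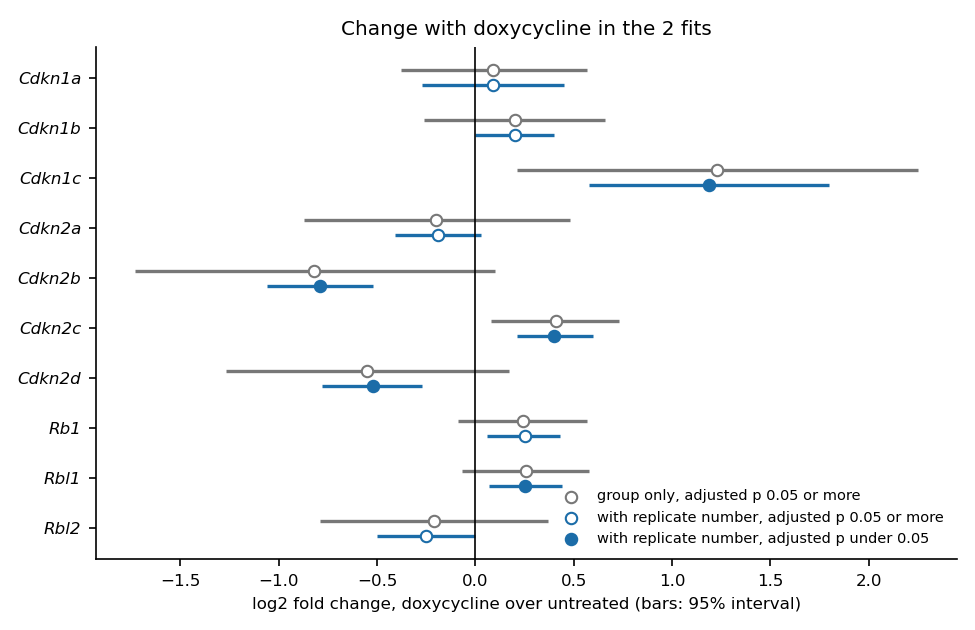
The horizontal axis is the log2 fold change, doxycycline over untreated, of each of the 10 genes, with its 95% interval as a bar. Grey stands for the fit with the group alone and blue for the fit with the replicate number, and filled points have an adjusted p under 0.05. The 5 filled points are Cdkn1c, Cdkn2b, Cdkn2c, Cdkn2d and Rbl1, all in the fit with the replicate number.

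The 4 INK4 genes did not move together. With the block Cdkn2b and Cdkn2d fell and Cdkn2c rose, while Cdkn2a, by far the most abundant, did not pass in either direction.

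Cdkn2a lies on chromosome 4 from 89274471 to 89294653 on the minus strand (ENSMUSG00000044303.6, GRCm38). It encodes 2 unrelated proteins from different first exons: p16, an INK4 inhibitor, and p19ARF, which binds MDM2 and so shields p53. The annotated starts are 89294653 for the transcript with the upstream first exon and 89282192 for the other. The counts are per symbol and do not tell the products apart. Cdkn2a stood at 355, 242 and 191 CPM in untreated replicates 1, 2 and 3, and at 278, 252 and 157 CPM with doxycycline. The groups overlapped, and in each group the library numbered 1 was highest and that numbered 3 lowest. Within the numbers the log2 ratios of doxycycline to untreated were -0.35, 0.06 and -0.28. By edgeR the change was -0.20 with a 95% interval from -0.87 to 0.48 on the log2 scale (SE 0.29, adjusted p = 0.83), and with the block the interval ran from -0.41 to 0.03 (adjusted p = 0.19). Its sign turned without untreated replicate 1 (0.10) and without doxycycline replicate 3 (0.02).

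Cdkn2b encodes p15, the INK4 inhibitor that TGF-beta signalling is known to induce, and lies next to Cdkn2a (chromosome 4, 89306299 to 89311039, minus strand, ENSMUSG00000073802.5). Its level was 18.4, 12.1 and 7.43 CPM in untreated replicates 1, 2 and 3 and 9.89, 6.93 and 4.71 CPM with doxycycline. Each doxycycline library was below the untreated library of its number, but the groups overlapped, since untreated replicate 3 was lower than doxycycline replicate 1. The log2 ratios within the numbers were -0.90, -0.80 and -0.66. edgeR put the change at -0.82 on the log2 scale (SE 0.39, adjusted p = 0.39) with the group alone and -0.79 (SE 0.12, adjusted p = 0.0011) with the block. This was the smallest adjusted p among the 10 genes with the block, and the mean went from 12.6 ± 5.50 to 7.17 ± 2.60 CPM (SD, n = 3 each). Leaving out single libraries in the fit without the block gave log2 fold changes between -1.12 and -0.42.

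Cdkn2d encodes p19INK4d, an inhibitor of CDK4 and CDK6 (chromosome 9, 21288410 to 21291407, minus strand, ENSMUSG00000096472.2). It stood at 24.1, 20.2 and 11.9 CPM in untreated replicates 1, 2 and 3 and at 15.8, 13.3 and 9.30 CPM with doxycycline. The pattern was that of Cdkn2b: lower with doxycycline within every number, highest in number 1 and lowest in number 3 of each group, and overlapping between the groups. The log2 ratios within the numbers were -0.60, -0.61 and -0.35. On the log2 scale the fitted change was -0.55 (SE 0.31, edgeR adjusted p = 0.48), and -0.52 with the block (SE 0.11, adjusted p = 0.0075).

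Cdkn2c encodes p18, an INK4 inhibitor known for its part in the cell cycle exit of erythroid cells (chromosome 4, 109660876 to 109667189, minus strand, ENSMUSG00000028551.14). It went the other way, from 56.6, 51.7 and 48.2 CPM in untreated replicates 1, 2 and 3 to 74.3, 70.3 and 62.7 CPM with doxycycline. Every doxycycline library was above every untreated one, and the replicates lay close together. The log2 ratios within the numbers were 0.39, 0.44 and 0.38. By edgeR the change was 0.41 on the log2 scale (SE 0.14, adjusted p = 0.22), and 0.40 with the block (SE 0.087, adjusted p = 0.0072). All 16 alternative settings gave it a positive value, between 0.35 and 0.49.

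Of the 10 genes, the groups did not overlap for Cdkn1c, Cdkn2c and Rbl1, all higher with doxycycline, as were 8.88% of all genes. None was lower without overlap, against 11.7% of all genes. Within the replicate numbers 5 genes were higher in all 3 pairs (28.0% of all genes) and 3 were lower in all 3 (29.4%).

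**Figure D2:**
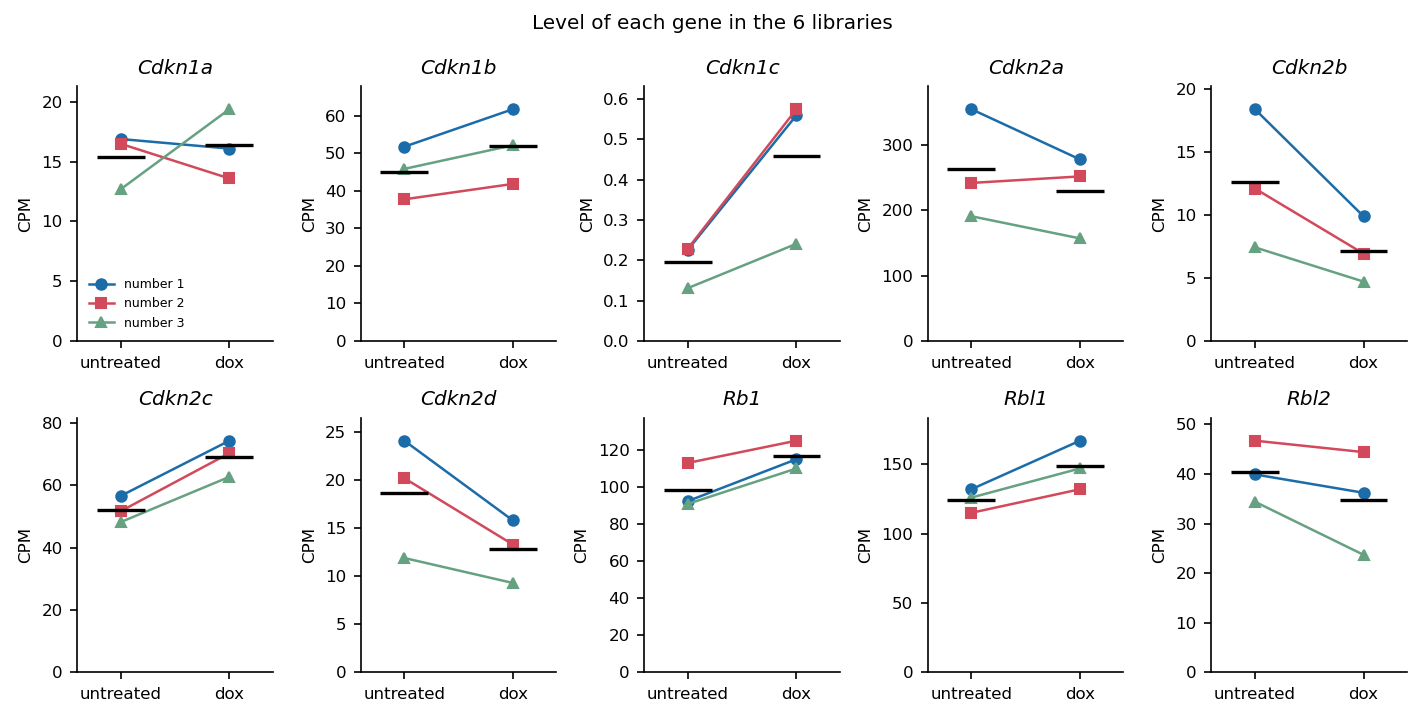
Each panel gives the CPM (vertical axis, from 0) of 1 of the 10 genes in the untreated and doxycycline libraries, with libraries of the same replicate number joined by a line and black bars at the group means. The lines of Cdkn2b, Cdkn2d and Rbl2 fall in all 3 numbers from different starting levels. Those of Cdkn1b, Cdkn1c, Cdkn2c, Rb1 and Rbl1 rise in all 3, and those of Cdkn1a cross.

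Windows of 300 bases around the start sites, 250 before and 50 after, are shown for 4 of the 5 genes that passed with the block, as the stretch where promoter elements would lie (RefSeq, GRCm38.p6, strand of the gene). RefSeq windows matched 8 of the 10 genes, with 11 windows in all. Capitals mark the core GAGGAA of PU.1 sites, or the E2F words TTTCGCGC, TTTGGCGC, TTTCCCGC and TTTGCCGC, sought on both strands. Of all 32851 windows in the table, 28.3% held the PU.1 core and 2.26% an E2F word. The windows of the 2 genes that fell held neither.

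Cdkn2b, chr4:89310983-89311282: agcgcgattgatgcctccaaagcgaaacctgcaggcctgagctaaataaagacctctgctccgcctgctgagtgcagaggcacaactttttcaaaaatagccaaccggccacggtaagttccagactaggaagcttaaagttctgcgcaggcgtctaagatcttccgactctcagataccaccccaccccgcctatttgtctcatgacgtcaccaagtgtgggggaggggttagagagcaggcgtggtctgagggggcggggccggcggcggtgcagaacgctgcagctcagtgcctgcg

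Cdkn2d, chr9:21291160-21291459: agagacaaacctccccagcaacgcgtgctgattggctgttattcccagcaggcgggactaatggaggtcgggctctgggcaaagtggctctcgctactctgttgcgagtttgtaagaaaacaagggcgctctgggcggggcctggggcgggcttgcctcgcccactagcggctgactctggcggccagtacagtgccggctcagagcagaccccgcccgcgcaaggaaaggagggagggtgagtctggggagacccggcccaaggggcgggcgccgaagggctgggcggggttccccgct

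Cdkn2c has 2 windows, and the downstream one held 1 PU.1 core, read on the opposite strand 150 bases before its start site.

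Cdkn2c upstream start, chr4:109666707-109667006: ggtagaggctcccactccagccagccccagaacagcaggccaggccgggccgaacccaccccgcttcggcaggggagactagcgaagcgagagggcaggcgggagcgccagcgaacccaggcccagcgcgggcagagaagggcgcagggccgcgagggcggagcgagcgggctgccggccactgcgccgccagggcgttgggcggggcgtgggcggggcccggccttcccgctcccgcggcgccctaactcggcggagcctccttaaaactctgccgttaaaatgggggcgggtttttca

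Cdkn2c downstream start, chr4:109665323-109665622: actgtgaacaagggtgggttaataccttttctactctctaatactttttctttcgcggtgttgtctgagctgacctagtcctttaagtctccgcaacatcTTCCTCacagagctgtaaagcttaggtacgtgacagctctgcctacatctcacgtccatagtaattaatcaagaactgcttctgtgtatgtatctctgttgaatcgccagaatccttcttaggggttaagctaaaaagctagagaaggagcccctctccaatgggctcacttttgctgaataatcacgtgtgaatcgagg

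The window of Rbl1 held 1 E2F word, TTTCGCGC, beginning 18 bases before the start site.

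Rbl1, chr2:157204485-157204784: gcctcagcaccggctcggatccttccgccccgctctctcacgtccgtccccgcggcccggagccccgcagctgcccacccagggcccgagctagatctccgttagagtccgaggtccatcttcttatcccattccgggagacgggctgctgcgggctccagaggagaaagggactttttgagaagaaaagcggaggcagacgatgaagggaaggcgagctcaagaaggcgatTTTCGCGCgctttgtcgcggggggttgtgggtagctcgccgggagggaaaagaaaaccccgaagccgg

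Among the other windows, that of the downstream Cdkn2a start held 2 PU.1 cores, that of the upstream Cdkn2a start 1 E2F word, and that of Rbl2 1 PU.1 core. Those of Cdkn1a (2 windows) and Cdkn1b held neither. A match of letters is a description of the window and shows no binding.

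The 3 CIP/KIP genes differed in level and in what was seen with doxycycline. Cdkn1c rose with the block, and Cdkn1a and Cdkn1b passed in neither fit.

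Cdkn1b encodes p27, the inhibitor that builds up in cells leaving the cycle (chromosome 6, 134920401 to 134925513, plus strand, ENSMUSG00000003031.14). It stood at 51.7, 37.7 and 45.8 CPM in untreated replicates 1, 2 and 3 and at 61.7, 41.8 and 52.1 CPM with doxycycline. The doxycycline library was higher within every number, but the groups overlapped. The log2 ratios within the numbers were 0.25, 0.15 and 0.19. edgeR put the change at 0.20 with a 95% interval from -0.26 to 0.66 on the log2 scale (SE 0.20, adjusted p = 0.73 with the group alone and 0.14 in the fit with the block).

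Cdkn1a encodes p21, a well known target of p53 (chromosome 17, 29090976 to 29100727, plus strand, ENSMUSG00000023067.14). Its levels were 16.9, 16.5 and 12.7 CPM in untreated replicates 1, 2 and 3 and 16.1, 13.6 and 19.4 CPM with doxycycline. The numbers went different ways: the log2 ratios were -0.07 and -0.28 in numbers 1 and 2 and 0.62 in number 3. On the log2 scale the fitted change was 0.09 with an interval from -0.38 to 0.57 (SE 0.20, edgeR adjusted p = 0.89). With the block the interval was -0.27 to 0.45 (edgeR adjusted p = 0.72), and without number 3 the block value was -0.17 (adjusted p = 0.30). AC167363.2, on the other strand, shares 273 exon bases with Cdkn1a, and the part of its reads in the Cdkn1a values was not tested.

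Cdkn1c encodes p57, an imprinted inhibitor that is best known from development and quiescent stem cells (chromosome 7, 143458339 to 143461050, minus strand, ENSMUSG00000037664.13). It was scarce, with counts of 20, 18 and 13 in untreated replicates 1, 2 and 3 and 51, 56 and 24 with doxycycline, of which 1 in each appears to have been added before deposit. These are 0.226, 0.229 and 0.131 CPM untreated and 0.560, 0.575 and 0.241 CPM with doxycycline. The groups did not overlap, by a narrow margin between doxycycline replicate 3 and untreated replicate 2. By edgeR the change was 1.23 on the log2 scale (SE 0.44, adjusted p = 0.23), and 1.19 with the block (SE 0.27, adjusted p = 0.010). It was 1.28 with 1 taken off each value. An antisense gene, Gm44732, shares 625 exon bases with it, and strand is not marked by the kit, so that reads of the 2 genes cannot be told apart.

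The 3 pocket protein genes were all well detected. Rbl1 rose with the block, and Rb1 and Rbl2 passed in neither fit.

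Rbl1 encodes p107, which works mainly with E2F4 in proliferating cells (chromosome 2, 157145893 to 157204534, minus strand, ENSMUSG00000027641.13). It stood at 132, 115 and 126 CPM in untreated replicates 1, 2 and 3 and at 167, 132 and 147 CPM with doxycycline. All doxycycline libraries were above the highest untreated one, doxycycline replicate 2 only just. The log2 ratios within the numbers were 0.34, 0.20 and 0.22. edgeR put the change at 0.26 on the log2 scale (SE 0.14, adjusted p = 0.45), and 0.25 with the block (SE 0.084, adjusted p = 0.049), which is close to the threshold. It also missed the threshold with the block when the libraries numbered 2 were left out.

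Rb1 encodes pRB, the retinoblastoma protein itself (chromosome 14, 73183673 to 73325822, minus strand, ENSMUSG00000022105.6). Its levels were 92.4, 113 and 90.9 CPM in untreated replicates 1, 2 and 3 and 115, 125 and 110 CPM with doxycycline. The doxycycline library was higher within every number, with log2 ratios of 0.31, 0.15 and 0.27, and the groups overlapped through untreated replicate 2. On the log2 scale the fitted change was 0.24 (SE 0.14, edgeR adjusted p = 0.50), and 0.25 with the block (SE 0.085, interval 0.06 to 0.43, adjusted p = 0.059). Lpar6 lies inside Rb1 on the other strand and shares 408 exon bases, and Rcbtb2 shares 488. Mean levels untreated and with doxycycline were 0.996 and 0.176 CPM for Lpar6 and 7.08 and 6.24 CPM for Rcbtb2. Lpar6 fell with the block (log2 fold change -2.63, edgeR adjusted p = 2.8e-04). The part of Lpar6 or Rcbtb2 in the Rb1 values was not tested.

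Rbl2 encodes p130, the pocket protein of resting cells (chromosome 8, 91070057 to 91123844, plus strand, ENSMUSG00000031666.15). It stood at 39.9, 46.7 and 34.4 CPM in untreated replicates 1, 2 and 3 and at 36.2, 44.4 and 23.7 CPM with doxycycline. It was lower within every number, with log2 ratios of -0.14, -0.07 and -0.54, of which number 3 gave the largest. By edgeR the change was -0.21 with an interval from -0.79 to 0.37 on the log2 scale (SE 0.25, adjusted p = 0.78 with the group alone and 0.14 in the fit with the block), and it was 0.01 without doxycycline replicate 3. The neighbour Aktip, on the other strand, shares 693 exon bases with Rbl2. It went from 12.0 ± 2.38 to 7.16 ± 1.91 CPM (SD, n = 3 each) and fell with the block (log2 fold change -0.76, edgeR adjusted p = 0.0013). Gm45464, also on the other strand, shares 892 exon bases with Rbl2, and its mean was 0.0152 CPM untreated and 0.0347 CPM with doxycycline. How the reads of the shared bases were divided is not known, and the part of Aktip or Gm45464 in the Rbl2 values was not tested.

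Per length, Cdkn2a was by far the most abundant of the 10 genes. Divided by the length of all annotated exons (1172 bases), its untreated level was 224 RPKM (CPM per 1000 exon bases), with libraries from 163 to 303. Rbl1 (20.7), Cdkn2c (19.4) and Rb1 (16.4 RPKM) followed, then Cdkn2d (11.9), Cdkn1b (9.90) and Cdkn2b (9.08 RPKM), then Rbl2 (5.34) and Cdkn1a (4.32 RPKM), with Cdkn1c last at 0.096 RPKM. From Rbl1 down to Cdkn1a, each gene's range over the untreated libraries overlapped that of the next. The genes share their libraries, however, and within libraries Cdkn2c was above Rb1, and Rb1 above Cdkn2d, in all 6, whereas no other of these neighbouring pairs kept its order in all 6. Cdkn2a and Cdkn1c stood apart from all others. Where a gene uses only some of its annotated exons, RPKM over their union understates its level.

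**Figure D3:**
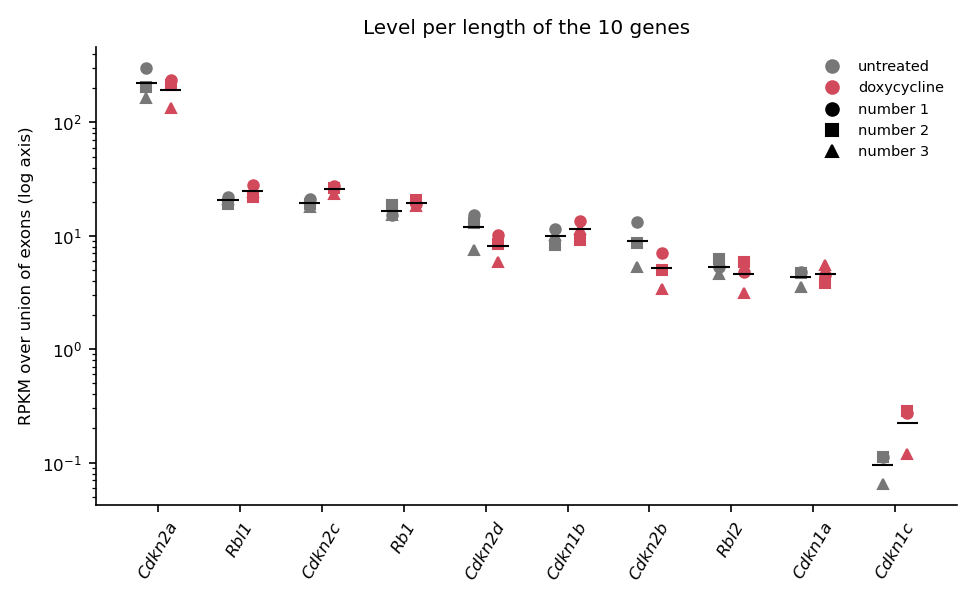
The vertical axis (log scale) is RPKM over the union of annotated exons, and genes are ordered by their untreated mean. Points are libraries, with grey for untreated, red for doxycycline and a shape for each replicate number, and short bars are group means. Cdkn2a lies above the rest in all 6 libraries and Cdkn1c below.

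Levels also differed between the replicate numbers. In the fit with the block, 6 of the 10 genes differed between the replicate numbers at an adjusted p under 0.05, against 43.3% of all genes tested. They were Cdkn2b (edgeR adjusted p = 0.00083), Cdkn2a (0.0016), Cdkn2d (0.0025), Rbl2 (0.011), Cdkn1b (0.014) and Cdkn1c (0.045). Between the highest and the lowest untreated library Cdkn2b differed 2.48-fold, Cdkn2d 2.02-fold and Cdkn2a 1.86-fold, which for each of these genes is more than the difference between the group means. Cdkn2c differed 1.17-fold and Rbl1 1.14-fold over the same libraries. What a number stands for is not given in the labels.

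Markers of 8 cell types were looked at for the same libraries. All 10 erythroid markers, Gata1 and Klf1 among them, had a mean of at least 5 CPM, and their summed level was 3890 to 5160 CPM untreated and 4680 to 6730 CPM with doxycycline. By edgeR with the block 7 of them rose and 1 fell, against 10.3% and 15.6% of all genes tested. With the group alone no marker of the 8 cell types passed but 1 monocyte and macrophage marker, which fell. The 8 megakaryocyte and platelet markers, some of which progenitors also express, summed to 397, 320 and 210 CPM in untreated replicates 1, 2 and 3. With doxycycline they summed to 225, 205 and 138 CPM. Within each group this was the order of libraries of all 4 INK4 genes, including Cdkn2c, which rose with the block. The T and NK cell markers summed in the same order, and how many of all genes share it was not counted. Of the megakaryocyte and platelet markers 5 of 7 tested fell and 1 rose with the block. The 8 B cell markers summed to 44.4 and 39.2 CPM in the libraries numbered 3 and to at most 7.18 CPM in the others, and the 10 neutrophil markers to 43.6 CPM in untreated replicate 2 and between 0.197 and 11.4 CPM elsewhere. With the block 1 of 4 tested B cell markers and 1 of 6 tested neutrophil markers fell. Of 7 mast cell and basophil markers, 6 of them tested, summing to 271 to 449 CPM untreated and 295 to 472 CPM with doxycycline, 3 fell with the block. Of 8 monocyte and macrophage markers, 5 of them tested, 4 fell with the block (sums of 6.19 to 12.7 CPM untreated and 1.45 to 3.08 CPM with doxycycline). Of 5 T and NK cell markers the 2 tested rose with the block (3.08 to 5.20 and 4.97 to 7.42 CPM). The 7 stromal and endothelial markers summed to at most 0.752 CPM, and the 1 tested did not pass. Outside the erythroid list few markers had a mean of at least 5 CPM. These were Pf4, Itga2b, Gp1ba and Gp5 (megakaryocyte and platelet), Fcer1a and Gata2 (mast cell and basophil) and Blnk (B cell). No marker was at the lowest value of the table in all libraries. These are bulk RNA values, in which fewer cells of a type and less RNA per cell cannot be told apart, and the part of any of these in the 10 genes was not tested.

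Of the 12 tested cyclins and kinases on which the inhibitors act, none passed with the group alone, by edgeR or DESeq2. With the block 1 rose and 2 fell, a share close to that of all genes (10.3% higher and 15.6% lower), and 1 rose and none fell without the libraries numbered 1, and 1 rose and 1 fell without those numbered 2. The riser was Ccne1, cyclin E1, a CDK2 partner that the CIP/KIP inhibitors block. It stood at 50.4, 50.0 and 78.9 CPM in untreated replicates 1, 2 and 3 and at 87.0, 77.3 and 139 CPM with doxycycline (log2 fold change with the block 0.75, SE 0.089, edgeR adjusted p = 2.2e-04). Ccne2, cyclin E2, fell from 102 ± 16.0 to 82.0 ± 16.2 CPM (-0.32, SE 0.094, edgeR adjusted p = 0.031). Cdk6, a target of the INK4 inhibitors, fell from 242 ± 64.9 to 181 ± 51.2 CPM (-0.43, SE 0.083, edgeR adjusted p = 0.0041; SD, n = 3 each). The 2 E cyclins thus moved in opposite directions within every replicate number. For Ccne1, Ccne2 and Cdk6 alike the groups overlapped. Exons of Ccne2 overlap Ints8 and those of Cdk6 overlap Gm17590, both on the other strand.

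Of 17 tested E2F, DP, MuvB and related genes, most of which encode partners of pocket proteins, none passed with the group alone in edgeR or DESeq2. With the block 2 rose and 3 fell, close to the 25.8% of all genes that passed, and none passed without the libraries numbered 1. Mybl2, encoding B-MYB, which takes over the MuvB core in cycling cells, stood at 116, 129 and 124 CPM in untreated replicates 1, 2 and 3 and at 76.3, 101 and 70.4 CPM with doxycycline. The groups did not overlap (log2 fold change with the block -0.59, SE 0.10, edgeR adjusted p = 0.0021). E2f5, a repressive E2F that works with p130, fell from 11.3 ± 2.24 to 7.81 ± 1.72 CPM (-0.54, SE 0.12, edgeR adjusted p = 0.0079). E2f6, a repressor that does not bind pocket proteins, rose from 45.0 ± 3.89 to 59.6 ± 4.30 CPM (0.40, SE 0.089, edgeR adjusted p = 0.0081; SD, n = 3 each). For E2f5 the groups overlapped, and for E2f6 they did not. The other riser was Lin9 and the other faller E2f3, both named after their values were seen.

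Of 20 tested S phase genes that E2F factors regulate, 7 rose and none fell with the block, against 10.3% and 15.6% of all genes, and none passed with the group alone in edgeR or DESeq2. Without the libraries numbered 1 the block fit called 1 higher and none lower. Their median log2 fold change with the block was 0.19, beside -0.002 over all genes. The list was drawn up with earlier results of these data known, so these shares are a description only. Gins1, a subunit of the replicative helicase complex, rose from 29.6 ± 5.73 to 40.6 ± 5.71 CPM (0.47, SE 0.096, edgeR adjusted p = 0.0056). Cdc6, which acts at replication origins, rose from 117 ± 12.4 to 156 ± 26.2 CPM (0.41, SE 0.085, edgeR adjusted p = 0.0057; SD, n = 3 each). Gins2 stood at 50.2, 38.2 and 36.8 CPM in untreated replicates 1, 2 and 3 and at 62.7, 52.7 and 53.7 CPM with doxycycline (0.44, SE 0.094, edgeR adjusted p = 0.0066), and shares 2758 exon bases with Gse1 on the other strand. Gins1 overlapped between the groups, and Cdc6 and Gins2 did not. Others that rose included Mcm7, Pcna and Tk1.

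Of 21 tested genes listed as regulators of the transcription or turnover of CDK inhibitors, 3 rose and 1 fell with the block, against 25.8% of all genes in either direction. Without the libraries numbered 1 the block fit called 1 higher and none lower, and without those numbered 3 it called 8 higher and 2 lower. None passed with the group alone in edgeR, and Ubac1 did in DESeq2. This gene encodes a subunit of the ligase complex that marks p27 for breakdown in G1, and stood at 64.0, 55.7 and 80.3 CPM in untreated replicates 1, 2 and 3 and at 106, 95.8 and 151 CPM with doxycycline. The groups did not overlap (log2 fold change with the block 0.80, SE 0.088, edgeR adjusted p = 1.2e-04). Bmi1, the polycomb protein known for silencing the Cdkn2a locus, rose from 271 ± 28.0 to 362 ± 68.1 CPM (0.41, SE 0.099, edgeR adjusted p = 0.013). Foxo3, a factor known to activate Cdkn1b, rose from 84.7 ± 20.2 to 108 ± 27.4 CPM (0.35, SE 0.084, edgeR adjusted p = 0.013; SD, n = 3 each). Foxo3 overlapped between the groups, whereas Bmi1 did not. The faller was Fbxw7, a ligase subunit that marks cyclin E, which is a cyclin and not a CDK inhibitor. Fbxw7 was named after its values were seen.

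**Figure D4:**
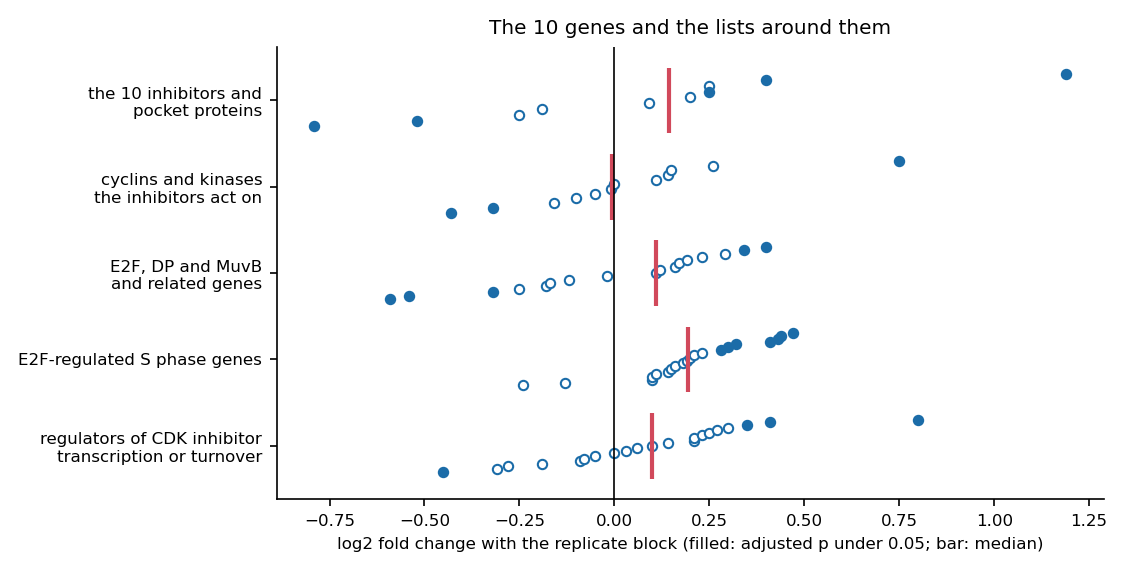
The horizontal axis is the log2 fold change with the replicate number in the model, 1 point per gene, for the 10 inhibitors and pocket proteins and the 4 lists around them. Filled points have an adjusted p under 0.05 and red bars are medians. The points of the 10 genes run from -0.79 for Cdkn2b to 1.19 for Cdkn1c, and the median of the S phase genes lies at 0.19.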

How the data were processed

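RNA-seq measured polyadenylated RNA of 6 libraries, made with the TruSeq RNA v2 kit, per the labels' protocols. The authors deposited raw read counts per gene symbol. The submitters' processing notes name bcl2fastq 2.17.1.14, STAR, DESeq2 and the builds mm10 and GRCm38. The counter, its annotation and its strand setting were not found in any source used here. The lowest value in every deposited column of counts is 1, so 1 appears to have been added to each; values were used as deposited. Columns were matched to samples by name.

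Counts were fitted with edgeR 4.0.16 (limma 3.58.1, R 4.3.3): TMM factors, filterByExpr, a two-sided quasi-likelihood F test with the group as the only term, and Benjamini-Hochberg adjustment over 14158 genes, threshold 0.05. SE was taken as the log2 fold change, unsigned, over the root of F. A block for the replicate number was tried as an alternative: libraries of equal number correlated at 0.769, 0.742 and 0.723 in their deviations from the group means, which was taken as pairing. The block lowered the biological coefficient of variation from 28.6% to 11.3% and the residual degrees of freedom from 4 to 2. DESeq2 1.42.0, RLE factors, no factors, no filter, 1 taken off and left-out libraries or numbers were the other alternatives. Both fits were tried on simulated data with a block for the replicate number built in. Such data cannot show whether the numbers pair the real libraries. Where nothing says that the cultures were separate, p-values measure only the spread between these samples.

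CPM use TMM-scaled library sizes; RPKM divide them by the union of GENCODE M21 exons (GRCm38). The genes and lists were chosen with earlier results of these data known. Of each list, up to 3 genes with the smallest adjusted p under 0.05 were named, from the fit with the block where none passed without it. With the group alone the edgeR adjusted p of the genes so named ran from 0.12 (Ubac1) to 0.60 (Foxo3). Of the 70 marker genes, 7 were not matched to the table and were not analysed here.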

Additional observations from a re-analysis of the deposited data

How the results depend on the processing

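None of the 10 genes passed without the replicate block under any alternative run: DESeq2, RLE factors, total counts, no filter, 1 taken off, or any single library left out. With the replicate block 3 rose and 2 fell, and 2 and 2 by DESeq2; leaving out a replicate number with the block gave 0 to 3 higher and 0 to 2 lower, 0 and 0 without number 1. Over all genes 59 were higher and 308 lower, 291 and 722 by DESeq2, 1452 and 2206 with the block, and 1436 and 1966 by DESeq2 with the block; with libraries or numbers left out these counts ran from 0 to 2071 and from 35 to 2677, all below the main counts in the fits without the block.

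Counts of the lists were 0 in edgeR without the block in every such alternative. With the block, and by DESeq2 with the block, 1 cyclin or kinase rose and 2 fell in each, 2 E2F or MuvB genes rose and 3 fell in each, and 7 S phase genes rose in each. Of the regulators 3 rose and 1 fell with the block and 4 and 1 by DESeq2 with the block, and 1 rose by DESeq2 alone. Over the fits with a library left out (no block, all 0) or a number left out (with the block), the risers of the lists numbered 0 to 1, 0 to 3, 0 to 9 and 0 to 8 in the order of these lists, and the fallers 0 to 2, 0 to 3, 0 to 1 and 0 to 2.

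Signs turned for 3 genes, none of which passed. With libraries or numbers left out, Cdkn1a ran from -0.17 (without number 3, with the block) to 0.28, and was -0.03 without untreated or doxycycline replicate 3. Cdkn2a ran from -0.38 to 0.10 (without untreated replicate 1), and was 0.02 without doxycycline replicate 3. Rbl2 ran from -0.43 to 0.01 (without doxycycline replicate 3). The other 7 kept their signs in all 16 alternatives. The cause of these changes was not tested. Depth limits Cdkn1c most, with 13 to 56 counts per library.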

Other observations

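Ratios between relatives, picked after the values were seen, are given as a description with no test. Per length, the ratio of Cdkn2c to Cdkn2d in replicates 1, 2 and 3 was 1.38, 1.50 and 2.38 untreated and 2.75, 3.11 and 3.95 with doxycycline, so that the groups did not overlap. Those of Cdkn2c alone did not overlap either, while those of Cdkn2d did. The ratio of Cdkn2b to its neighbour Cdkn2a was 0.0437, 0.0420 and 0.0329 untreated and 0.0300, 0.0232 and 0.0253 with doxycycline, again without overlap. The ratio of Rbl1 to Rbl2 was 4.16, 3.11 and 4.62 untreated and 5.81, 3.76 and 7.80 with doxycycline, with overlap. Cdkn2a made up between 80.4% and 85.9% of the summed level per length of the 4 INK4 genes in every library, and Cdkn1b between 63.5% and 73.8% of that of the 3 CIP/KIP genes. The share of Cdkn2a is not that of p16, since the counts do not tell its p16 and p19ARF products apart.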
